A study of Homo sapiens with 6 samples.

Results

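Pleiotrophin (PTN) and midkine (MDK), their receptor phosphatases PTPRZ1 and PTPRG, the receptor ALK, the syndecan SDC3 and the matrix protein tenascin C (TNC) were followed in 6 clonal lines of HEK293, an established human embryonic kidney cell line. These 7 genes were taken by symbol from 58395 gene rows, and 6 of them had enough reads to be tested. PTPRZ1 was taken because it stood out in the comparison of the NOCT lines with the GST lines, so its values there are a description with no test. The members were thus selected on the measured PTPRZ1 fold change and, for the other 6, on reported relations to it or its ligands. GST lines 2, 8 and 9 expressed GST-3F, a glutathione S-transferase control protein carrying the 3F tag. NOCT lines 4, 11 and 12 expressed NOCT ∆(2-15)-3F, nocturnin lacking residues 2 to 15 with the same tag. Nocturnin is a circadian protein that acts on NADP and NADPH. Each line is 1 clone, so clones of a group can differ for reasons other than the expressed protein, and 3 clones stand for each group. All 6 were grown for 3 days, and the libraries were depleted of ribosomal RNA and kept strand.

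PTPRZ1 is a transmembrane receptor tyrosine phosphatase of glia and neural progenitors that carries chondroitin sulphate chains. Pleiotrophin and midkine are related heparin-binding growth factors that bind it and reduce its activity, which leaves its substrates more phosphorylated. PTPRG is its closest relative, with the same kind of carbonic anhydrase-like outer domain. ALK and SDC3 are further reported binding partners of the ligands, and tenascin C is a matrix partner of PTPRZ1.

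The libraries held 19729745 to 24422406 gene counts. Each held the construct its label names: the GST construct had 46 to 88 counts in GST lines and 0 to 1 in NOCT lines, and the NOCT construct had 46 to 82 in NOCT lines and 3 to 7 in GST lines. NOCT line 12 stood apart from its group. Its Pearson correlation of log2(CPM + 1) over 17261 genes, which are not independent replicates, was 0.974 with NOCT line 4 and 0.979 with NOCT line 11, against 0.990 between those lines and 0.980 to 0.984 with the GST lines. CPM here is counts scaled to library size with TMM factors. All 6 HEK293 markers looked at (PAX2, EYA1, LIN28B, NEFL, NEFM and VIM) had a mean of at least 1 CPM, although NEFM reached it through NOCT line 12 alone (6.88 CPM, against 0.196 to 0.354 CPM in the other lines). PAX2 was at 3.86 to 5.70 CPM in GST lines and 0.747 to 1.30 in NOCT lines. EYA1 was at 12.8 to 15.0 and 19.7 to 32.0 CPM. The group ranges of these 2 markers did not overlap, as for 20.0% of all genes tested. Of 11 glial and neural progenitor markers, 6 had a mean of at least 1 CPM, and SOX10 and FABP7 had at most 3 counts in every line. In bulk RNA, fewer cells with a transcript and less transcript per cell cannot be told apart.

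On the length-scaled TPM scale of the authors, midkine had the highest mean level of the 7 genes (57.8 TPM over the 6 lines, range 34.8 to 85.2). TNC followed with 23.4 (8.15 to 57.6), PTPRG with 19.6 (18.1 to 21.7), PTN with 10.5 (1.03 to 29.2) and SDC3 with 10.3 (8.92 to 11.3). PTPRZ1 was at 0.855 TPM (0.110 to 1.67) and ALK at 0.0241 TPM (0 to 0.0723). The ranges of neighbours in this order overlapped down to SDC3: MDK was above TNC in 5 of 6 lines, TNC above PTPRG in 3, PTPRG above PTN in 4 and PTN above SDC3 in 2. SDC3 was above PTPRZ1, and PTPRZ1 above ALK, in 6 of 6 lines with no overlap of ranges. In all 6 lines the PTPRG transcript was therefore more abundant than that of PTPRZ1, and the midkine transcript more abundant than that of pleiotrophin.

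**Figure D1:**
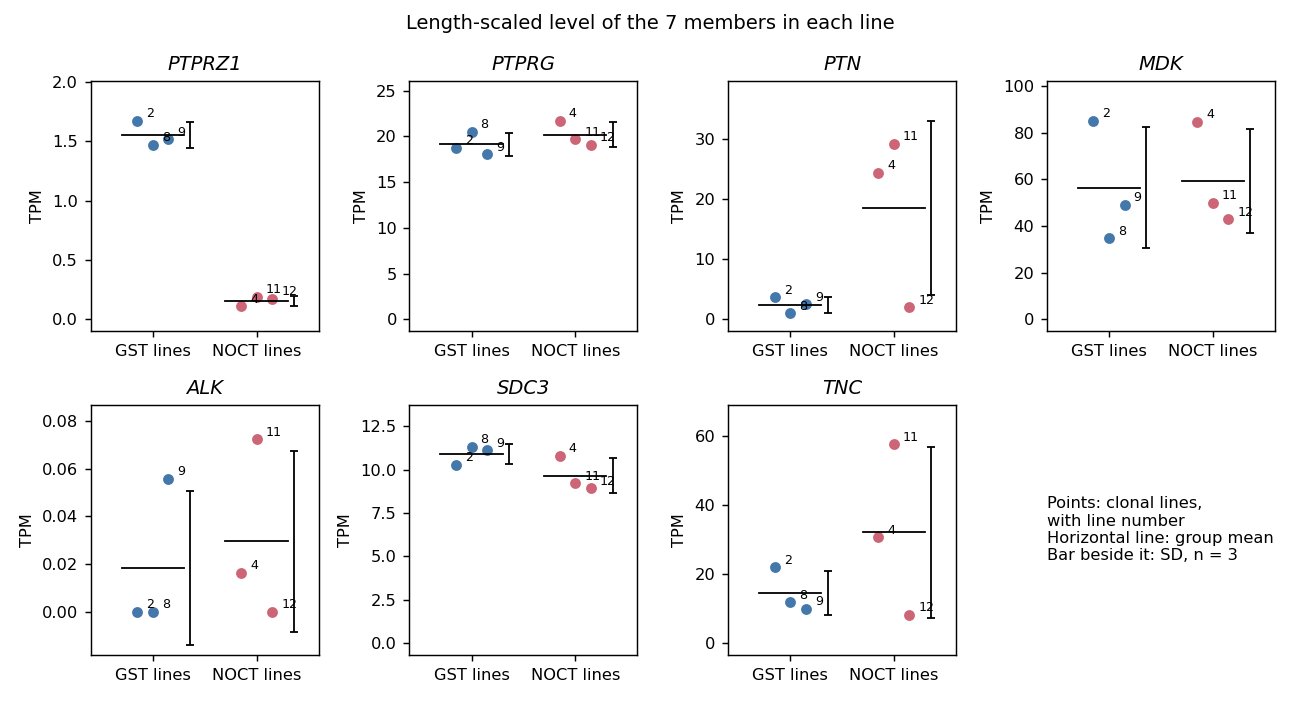
TPM of each of the 7 genes in each line (points, labelled with the line number), with the group mean as a horizontal line and the SD of 3 lines as a bar; each panel has its own linear axis. PTPRZ1 was at 1.47 to 1.67 TPM in GST lines and 0.110 to 0.188 in NOCT lines, while PTN and TNC were highest in NOCT lines 4 and 11.

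The genes also differed in the sequence just upstream of their starts, shown here after their spread between lines was seen. PTN and TNC, which varied most, had fewer CpG dinucleotides there than PTPRG and SDC3, the steadiest. PTPRZ1, near the middle of all genes in spread, was in neither set. In the 250 bases before the RefSeq start (GRCh38.p14), PTPRZ1 held 29 CpG dinucleotides, PTPRG 32, SDC3 37 and the upstream start of ALK 24. PTN held 8 and TNC 12, near the median of 11 over 35116 promoter windows of the same length. In percentiles of those windows, SDC3 was at 96.0, PTPRG at 90.5, PTPRZ1 at 85.9, TNC at 51.5 and PTN at 43.7. MDK, which also varied between lines, had no entry among the promoter sequences, so its CpG content is not known here. The stretches below run 5′ to 3′ on the gene's strand, as far as the GENCODE 29 start of the gene, with CG dinucleotides in capitals. They are chr7:121872911-121873088 (plus strand, 178 bases) for PTPRZ1, chr3:61561321-61561568 (plus strand, 248 bases) for PTPRG, chr7:137343866-137343983 (minus strand, 118 bases) for PTN and chr9:115118258-115118407 (minus strand, 150 bases) for TNC.
PTPRZ1: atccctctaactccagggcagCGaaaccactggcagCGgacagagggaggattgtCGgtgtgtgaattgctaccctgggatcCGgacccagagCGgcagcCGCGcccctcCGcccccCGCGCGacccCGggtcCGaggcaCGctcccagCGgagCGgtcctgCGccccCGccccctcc
PTPRG: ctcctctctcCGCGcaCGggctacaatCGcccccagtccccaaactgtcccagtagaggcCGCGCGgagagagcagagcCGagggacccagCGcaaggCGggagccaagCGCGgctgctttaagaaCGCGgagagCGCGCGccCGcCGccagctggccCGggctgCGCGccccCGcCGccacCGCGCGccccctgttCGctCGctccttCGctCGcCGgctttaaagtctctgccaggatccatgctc
PTN: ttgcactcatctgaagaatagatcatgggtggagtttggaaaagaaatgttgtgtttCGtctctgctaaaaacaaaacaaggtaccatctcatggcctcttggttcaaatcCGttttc
TNC: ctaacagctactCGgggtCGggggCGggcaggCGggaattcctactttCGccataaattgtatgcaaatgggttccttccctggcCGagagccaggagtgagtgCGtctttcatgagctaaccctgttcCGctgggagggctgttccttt
Per 100 bases shown, there were 12.9 CG dinucleotides for PTPRG, 10.1 for PTPRZ1, 5.33 for TNC and 1.69 for PTN. These are descriptions of 4 sequences, and no link between CpG content and the levels was tested.

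PTPRZ1 (ENSG00000106278; chromosome 7, 121873089 to 122062036, plus strand, GRCh38) was the gene that chose this axis. GST lines 2, 8 and 9 held 117, 108 and 110 of its reads, and NOCT lines 4, 11 and 12 held 9, 14 and 12. Every GST line was high and every NOCT line low, with no overlap. In CPM this was 5.53 ± 0.591 for GST and 0.528 ± 0.152 for NOCT (SD, n = 3 per group), a ratio of means of 10.5, and the lowest GST line was 7.99-fold above the highest NOCT line. The 95% exact Poisson interval of the lowest count, 9 in NOCT line 4, ran from 4.12 to 17.1 counts, and that of the lowest GST count, 108, from 88.6 to 130.4, which covers counting error only. The fitted log2 fold change was -3.39 ± 0.30 (SE). In the authors' deposited table it is -2.14, shrunken. On the log2(TPM + 1) scale it was -1.14, since the added 1 exceeds the NOCT values. Leaving out each line in turn gave -3.54 to -3.16.

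Genes around PTPRZ1 showed no such difference in level. The 100 nearest tested genes on chromosome 7 whose mean reached 1 CPM had a median deviation from their means of -0.07 to 0.04 (log2) in the 6 lines. AASS, an enzyme of lysine breakdown whose 3′ end lies 13611 bases downstream, had 68.2 ± 5.47 CPM for GST and 60.3 ± 4.87 for NOCT (SD, n = 3 per group; log2 fold change -0.18, edgeR adjusted p 0.491). FAM3C, a secreted protein gene 476725 bases upstream, had 15.8 ± 0.870 and 15.7 ± 0.960 CPM (edgeR adjusted p 0.991).

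PTPRG (ENSG00000144724; chromosome 3, 61561569 to 62297613, plus strand), the relative that shares the outer domain of PTPRZ1, did not pass the test. Its counts were 1939, 2222 and 1936 in GST lines 2, 8 and 9 and 2613, 2165 and 1969 in NOCT lines 4, 11 and 12. The groups overlapped, at 100.3 ± 4.40 and 99.6 ± 2.86 CPM (SD, n = 3 per group). Their log2 fold change came to -0.01 ± 0.08 (SE; edgeR adjusted p 0.973). Of the TPM of both phosphatases together, PTPRZ1 made up 8.17%, 6.69% and 7.73% in GST lines 2, 8 and 9 and 0.506%, 0.945% and 0.891% in NOCT lines 4, 11 and 12. PTPRG TPM was thus 11.2 to 13.9 times PTPRZ1 TPM in GST lines and 105 to 197 times in NOCT lines. The antisense RNA PTPRG-AS1, which overlaps the gene on the other strand, had 14 to 49 counts per library. The libraries kept strand, but whether the counting used it is not given in the sources used here.

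Over all 17261 genes tested, edgeR called 10, which is 0.0579%, with 6 (0.0348%) lower and 4 (0.0232%) higher in NOCT lines. PTPRZ1 was the 1 of 6 tested members called, and nothing is read from that count because this comparison chose it. It was not called without GST line 2, without GST line 9 or without NOCT line 11. The CPM ranges of the groups did not overlap for 2 members, PTPRZ1 and SDC3, both lower in NOCT lines, where 9.54% of all genes tested did so in that direction and 20.0% in either direction.

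Among the other 18 receptor-type tyrosine phosphatases, 13 were tested and 0 passed in edgeR. The most abundant were PTPRA at 64.0 TPM, PTPRK at 34.8 and PTPRF at 25.8, in means over the 6 lines. Unadjusted p-values under 0.05 were found for 4 of the 13 (1 higher, 3 lower), against 13.9% of all genes tested, and their median log2 fold change was -0.02, against 0.00 for all genes. DESeq2, which called 2.94% of all genes tested, called 1 of them. The smallest p-values belonged to PTPRS, PTPRM and PTPRU, each lower in every NOCT line than in every GST line. PTPRN2 shared that order, at 1.45 ± 0.143 CPM in GST lines and 0.606 ± 0.551 in NOCT lines (edgeR adjusted p 0.400). That made 4 of the 13 tested genes, while 0 were higher in every NOCT line. Over all genes tested, 9.54% were lower in this way and 10.5% higher. PTPRS, which binds heparan and chondroitin sulphate, had 81.3 ± 4.18 CPM in GST lines and 65.4 ± 2.09 in NOCT lines (log2 fold change -0.31, edgeR adjusted p 0.204). PTPRM, a homophilic adhesion phosphatase, had 71.5 ± 5.87 and 45.5 ± 11.9 CPM (-0.65, edgeR adjusted p 0.206), and it was the gene DESeq2 called (adjusted p 0.0357). Relative to its 100 chromosomal neighbours its log2 fold change was -0.22 (edgeR adjusted p 0.236). PTPRU, of the same adhesion class, had 57.5 ± 0.819 and 41.4 ± 8.21 CPM (-0.48, edgeR adjusted p 0.220). All are SD with n = 3.

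Pleiotrophin split the NOCT group. PTN (ENSG00000105894; chromosome 7, 137227341 to 137343865, minus strand) had 44, 13 and 31 counts in GST lines 2, 8 and 9 and 344, 376 and 24 counts in NOCT lines 4, 11 and 12. NOCT lines 4 and 11 were high, and NOCT line 12 lay inside the range of the GST lines, so the groups overlapped. In CPM the NOCT lines were at 13.5, 16.9 and 1.21 and the GST lines at 2.32, 0.604 and 1.52. The lower of NOCT lines 4 and 11 was 5.82-fold above the highest of the other 4 lines, and NOCT line 11 was 14.0-fold above NOCT line 12. Between the groups the log2 fold change, 2.84 ± 0.86 (SE), did not pass (edgeR adjusted p 0.224, with 3.78e-05 to 0.589 over the alternatives).

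Midkine, the ligand with the higher level, did not separate the groups. MDK (ENSG00000110492; chromosome 11, 46380756 to 46383837, plus strand) had 1320, 566 and 789 counts in GST lines 2, 8 and 9 and 1531, 825 and 664 in NOCT lines 4, 11 and 12. GST line 2 and NOCT line 4 were the high lines of their groups, and GST line 2 was 2.65-fold above GST line 8 in CPM. The means were 44.9 ± 22.3 CPM for GST and 43.5 ± 14.6 for NOCT (SD, n = 3 per group). Their log2 fold change came to -0.04 ± 0.35 (SE; edgeR adjusted p 0.972). Without GST line 2 the log2 fold change turned to 0.42 (edgeR adjusted p 0.575).

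Together the ligand transcripts came to 88.8, 35.8 and 51.5 TPM in GST lines 2, 8 and 9 and 109, 79.1 and 44.9 TPM in NOCT lines 4, 11 and 12, and the groups overlapped (exact two-sided permutation p = 0.6, where 3 lines against 3 cannot go below 0.1). Pleiotrophin made up 4.10%, 2.86% and 4.80% of that sum in the GST lines, and 22.4%, 36.9% and 4.43% in the NOCT lines (exact two-sided permutation p = 0.2). The share in NOCT line 12 was within the GST range, while NOCT lines 4 and 11 were above it.

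The receptors beyond the phosphatases gave little signal for ALK and a steady one for SDC3. ALK (ENSG00000171094; chromosome 2, 29192774 to 29921566, minus strand), a receptor tyrosine kinase, had 0, 0 and 3 counts in GST lines 2, 8 and 9 and 1, 4 and 0 in NOCT lines 4, 11 and 12. A count of 0 allows up to 3, so ALK was at or near the limit of detection in all 6 lines and was not tested, and a difference was not detectable at this depth. SDC3 (ENSG00000162512; chromosome 1, 30869467 to 30908761, minus strand), a heparan sulphate carrier that binds pleiotrophin, had 27.0, 27.5 and 28.3 CPM in GST lines and 24.7, 22.0 and 22.3 CPM in NOCT lines. Every NOCT line was below every GST line on this scale, but on the TPM scale NOCT line 4 (10.8) was inside the GST range (10.3 to 11.3). At -0.26 ± 0.11 (SE), the log2 fold change did not pass (edgeR adjusted p 0.340).

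The other 15 receptors and ligands of the axis had 13 tested members, of which 0 passed in edgeR, 5 had an unadjusted p under 0.05 (3 higher, 2 lower, against 13.9% of all genes tested) and DESeq2, which called 2.94% of all genes, called 1, ITGAV. The median log2 fold change was 0.03. Nucleolin (NCL, 286 TPM) and the integrin subunits ITGB1 (122 TPM) and ITGA6 (49.8 TPM), which are reported low-affinity or signalling partners of the ligands, were the most abundant. LTK, the receptor kinase closest to ALK, had 3.35 ± 0.930 CPM in GST lines and 1.67 ± 0.248 in NOCT lines (log2 fold change -1.0, edgeR adjusted p 0.204). ITGAV, an integrin alpha subunit, had 109 ± 6.25 and 167 ± 44.9 CPM (0.62, edgeR adjusted p 0.212; DESeq2 adjusted p 0.0455). Its partner ITGB3 had 0.244 ± 0.0746 and 0.890 ± 0.594 CPM (1.85, edgeR adjusted p 0.230), from 3 to 6 counts per GST library. NOCT line 4 held 40 ITGB3 counts against 11 and 12 in the other NOCT lines, and without it the log2 fold change was 1.13. Without NOCT line 11, that of ITGAV was 0.40. All 3 had groups that did not overlap, as did 20.0% of all genes tested. The ALK ligands ALKAL1 and ALKAL2 had too few reads to be tested.

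No downstream gene passed the edgeR test. Over all genes tested, 13.9% had an unadjusted p under 0.05 and DESeq2 called 2.94%. Of 8 ALK adaptors and effectors, 8 were tested, 0 passed in edgeR or DESeq2, 1 had an unadjusted p under 0.05, and the median log2 fold change was 0.04. PTPN11, the SHP2 phosphatase, was the most abundant (111 TPM), before GRB2 (57.0) and STAT3 (38.3). The smallest p-values were those of the insulin receptor substrate IRS1 (log2 fold change 0.46, edgeR adjusted p 0.337), STAT3 (0.20, edgeR adjusted p 0.413) and FRS2 (0.07, edgeR adjusted p 0.772). Without NOCT line 11, IRS1 was at 0.22. Of 12 PTPRZ1 substrates and scaffold partners, 12 were tested, 0 passed in edgeR or DESeq2, 1 had an unadjusted p under 0.05, and the median was -0.05. The beta-catenin gene CTNNB1 (76.1 TPM), the adducin ADD3 (59.5) and the kinase FYN (36.8) led in level. FYN had 104 ± 8.11 CPM in GST lines and 86.3 ± 5.90 in NOCT lines (-0.27, edgeR adjusted p 0.286), ERBB4 44.3 ± 3.91 and 31.3 ± 10.8 (-0.50, edgeR adjusted p 0.366), and ARHGAP35, the p190 RhoGAP, 103 ± 6.48 and 127 ± 24.7 (0.30, edgeR adjusted p 0.409). Relative to its neighbours ARHGAP35 was at 0.04 (edgeR adjusted p 0.871). Without NOCT line 4, ERBB4 was at -0.32 and ARHGAP35 at 0.17. Without NOCT line 12, where 5.42% of all genes were called, both were called. ERBB4 was then at -0.81 (edgeR adjusted p 0.0155) and ARHGAP35 at 0.44 (edgeR adjusted p 0.0425).

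Tenascin C followed the same lines as pleiotrophin at its top. TNC (ENSG00000041982; chromosome 9, 115019578 to 115118257, minus strand) had 1492, 846 and 702 counts in GST lines 2, 8 and 9 and 2435, 4177 and 553 in NOCT lines 4, 11 and 12. NOCT lines 11 and 4 were the highest and NOCT line 12 the lowest of the 6, so the groups overlapped. In CPM this was 50.9 ± 24.3 for GST and 104 ± 80.1 for NOCT (SD, n = 3 per group), and NOCT line 11 was 6.75-fold above NOCT line 12. At 1.03 ± 0.60 (SE), the log2 fold change did not pass (edgeR adjusted p 0.485), and without NOCT line 11 it was 0.28 (edgeR adjusted p 0.897). The neighbourhood of TNC on chromosome 9 differed between lines: the median deviation of its 100 tested neighbours was -0.30 and -0.35 (log2) in NOCT lines 4 and 12, and 0.13 to 0.18 in the other 4 lines. With that level removed the log2 fold change of TNC was 1.25 (edgeR adjusted p 0.315). For PTN the neighbour deviation was -0.02 to 0.01 in the 6 lines.

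Over the marker lists, genes whose mean reached 1 CPM were set beside the PTN and TNC profiles by asking which were highest in NOCT lines 4 and 11, a pattern looked for after those values were seen. Of the 6 HEK293 markers, 2 were: VIM, with 1428 and 1402 CPM there and 679 to 947 in the other lines, and EYA1, with 32.0 and 31.4 against 12.8 to 19.7. Unlike PTN and TNC, EYA1 was also higher in NOCT line 12 (19.7 CPM) than in every GST line (12.8 to 15.0). Of the 6 glial and neural progenitor markers at that level, 3 were: SOX2, with 16.7 and 15.1 CPM against 10.8 to 13.0, OLIG2, with 4.36 and 4.08 against 1.61 to 3.33, and NES, with 19.7 and 9.69 against 4.91 to 8.70. SLC1A3 went the other way, with 19.0 and 23.9 CPM against 32.0 to 42.8. COL1A1 had 23.1 and 21.1 CPM, against 7.43 to 10.98. COL1A1 was the 1 of 6 leukocyte, endothelial and fibroblast markers with a mean of at least 1 CPM. The summed level of those 6 was 9.94 to 11.5 CPM in GST lines and 7.73 to 23.7 in NOCT lines, and CDH5 and DCN had at most 3 counts in every line. The share of all genes with this pattern was not counted, so nothing is read from how many markers had it. The part of these markers in the PTN and TNC values was not tested.

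Whether PTN was called depended on a library and on the filter, and for TNC it depended on the filter. Without NOCT line 12, with 3 GST lines and 2 NOCT lines, PTN rose by 3.36 on the log2 scale (edgeR adjusted p 0.00395), while TNC was at 1.48 (edgeR adjusted p 0.0534), and 5.42% of 17882 genes were called. With no filter except a count above 0, where 2.57% of 34539 genes were called, PTN was called at 2.83 (edgeR adjusted p 3.78e-05) and TNC at 1.02 (edgeR adjusted p 0.0328).

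The remaining matrix and adhesion partners of PTPRZ1 and PTPRG had 7 of 13 genes tested. In edgeR 0 passed, 0 had an unadjusted p under 0.05, DESeq2 called 0, and the median log2 fold change was -0.05. Over all genes tested, 13.9% had such an unadjusted p and DESeq2 called 2.94%. NRCAM (16.4 TPM), NCAM1 (12.5) and contactin 1 (CNTN1, 6.29) were the most abundant of these adhesion molecules. The smallest p-values were those of L1CAM (log2 fold change 0.94, edgeR adjusted p 0.498), NRCAM (-0.20, edgeR adjusted p 0.599) and CNTN4 (0.21, edgeR adjusted p 0.802). L1CAM was at 0.34 without NOCT line 4 and at 1.36 without NOCT line 12. The tenascins TNR and TNN had too few reads to be tested.

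PTPRZ1 needs chondroitin sulphate chains to bind pleiotrophin tightly, so the enzymes that make them were examined. Of 20 such genes 18 were tested and 0 passed in edgeR. The median log2 fold change was -0.07. Over all genes tested, 13.9% had an unadjusted p under 0.05 and DESeq2 called 2.94%. Here 1 gene had such a p, and DESeq2 called 1. That gene was CHSY3, a chondroitin polymerase. It had 9.29, 12.8 and 12.0 CPM in GST lines 2, 8 and 9 and 5.27, 4.94 and 4.17 CPM in NOCT lines 4, 11 and 12. Every NOCT line was below every GST line, as was the case for 9.54% of all genes tested. Its log2 fold change came to -1.24 ± 0.20 (SE; edgeR adjusted p 0.0751; DESeq2 adjusted p 1.27e-05). CHST12, a sulphotransferase, was at -0.26 (edgeR adjusted p 0.374) and DSEL, an epimerase, at -0.61 (edgeR adjusted p 0.494), with -1.12 without NOCT line 11 and -0.29 without NOCT line 12. The related polymerase CHSY1 (37.2 TPM), B3GALT6 (34.2) and CHPF2 (29.4) had the highest levels. Of 6 other chondroitin sulphate proteoglycans 3 were tested, and in edgeR 0 passed, 0 had an unadjusted p under 0.05 and DESeq2 called 0, with a median of 0.02. Versican (VCAN) was by far the most abundant at 65.7 TPM (log2 fold change 0.02, edgeR adjusted p 0.982), before CSPG5 at 5.53 TPM (0.06, edgeR adjusted p 0.932) and CSPG4 at 0.459 TPM (-0.23, edgeR adjusted p 0.736).

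**Figure D2:**
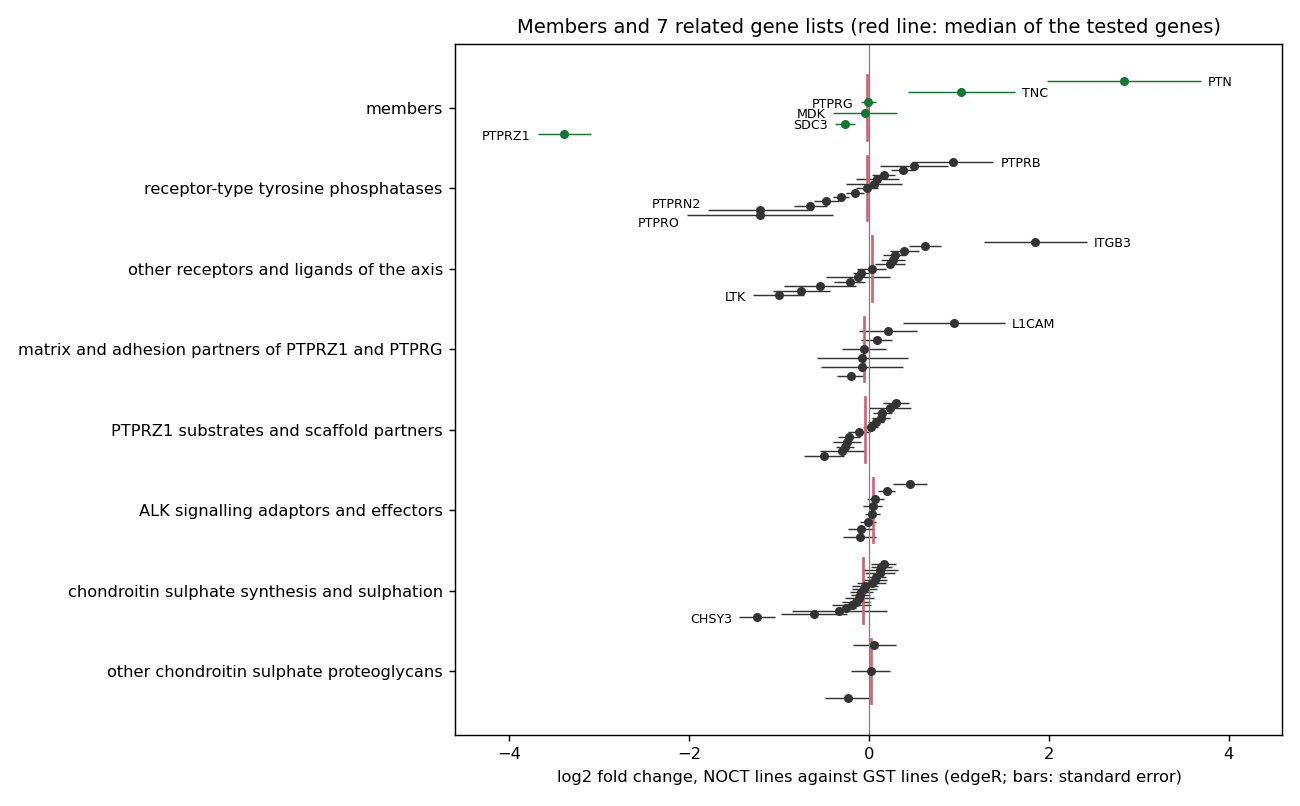
Log2 fold change of NOCT lines against GST lines for the tested members and the tested genes of 7 related lists, with standard errors as bars and the median of each list as a red line. The list medians lay between -0.07 and 0.04, and PTPRZ1 at -3.39 and PTN at 2.84 were the outermost members.

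The members differed widely in how much lines of a group varied. Over 14931 genes whose mean reached 1 CPM, the SD of log2(CPM + 0.5) between lines of a group, pooled over both groups, had a median of 0.19. PTN was at 1.40, above 99.7% of these genes, TNC at 1.08 (99.2%) and MDK at 0.59 (95.2%). PTPRZ1 was at 0.19 (48.0%), but its NOCT values of 0.354 to 0.628 CPM are of the size of the added 0.5, which lowers its spread there. In GST lines alone PTPRZ1 was at 0.14 (46.4%). SDC3 at 0.07 (5.32%) and PTPRG at 0.05 (2.61%) were among the steadiest genes. The high spread of PTN held in each group on its own, at 0.69 in GST lines (98.3%) and 1.85 in NOCT lines (99.7%). Its GST value rests on 44, 13 and 31 counts, so counting error is part of it. The percentiles rank it among genes of all levels, most of them not matched to it in counts. For MDK it was 0.70 in GST lines (98.4%) and 0.45 in NOCT lines (87.5%).

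**Figure D3:**
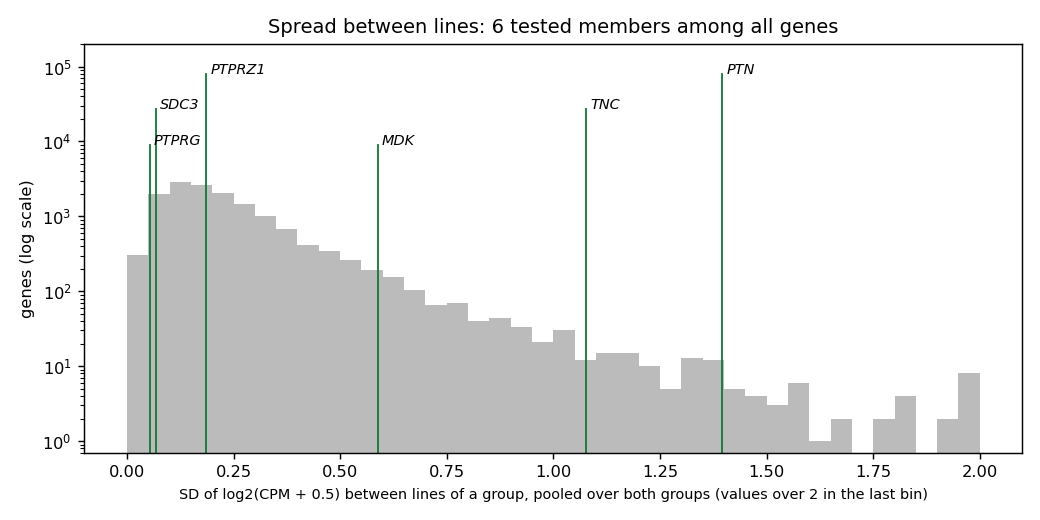
Number of genes (log axis) by the SD of log2(CPM + 0.5) between lines of a group, pooled over both groups, for 14931 genes, with the 6 tested members as vertical lines. PTPRG and SDC3 lie at the low end, PTPRZ1 at 0.19, lowered by the added 0.5, and MDK, TNC and PTN in the upper tail.

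The genes whose profile over the 6 lines was most like that of PTPRZ1 were FRRS1L, GALNT13, PAX2, PPFIA2 and TMEFF2. Likeness was the root mean square difference of log2(CPM + 0.5) centred on each gene's mean, over 6 lines, and these genes had 0.36, 0.40, 0.42, 0.44 and 0.47. All 5 were higher in every GST line than in every NOCT line, which the likeness itself brings, so no test is given. FRRS1L, an auxiliary protein of AMPA receptors, had 7.35 ± 1.71 CPM in GST lines and 0.457 ± 0.345 in NOCT lines. GALNT13, which starts mucin-type O-glycans, had 36.8 ± 6.94 and 8.03 ± 3.79. PAX2, a kidney transcription factor, had 4.76 ± 0.924 and 1.08 ± 0.296. PPFIA2, a liprin that binds receptor phosphatases of the LAR class, had 8.55 ± 2.16 and 1.28 ± 0.50, and TMEFF2, a transmembrane protein with follistatin domains, 10.9 ± 2.38 and 0.775 ± 0.471 (SD, n = 3 in each case). They lie on chromosomes 9, 2, 10, 12 and 2.

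The genes most like PTN, looked for after its values were seen, were BEX1, THBS1, TFPI2, TSPOAP1 and MYOF, with root mean square differences of 0.35, 0.42, 0.47, 0.48 and 0.53. BEX1, a small neural adaptor on chromosome X, had 47.0 and 51.1 CPM in NOCT lines 4 and 11 and 5.43 to 11.4 in the other lines. Thrombospondin 1 (THBS1) had 21.7 and 10.7, against 0.929 to 3.27. The protease inhibitor TFPI2 had 20.4 and 19.8, against 1.53 to 5.22. TSPOAP1, a presynaptic scaffold, had 11.99 and 5.88, against 0.325 to 0.581, and the membrane repair protein MYOF 20.9 and 10.6, against 0.836 to 1.15. This shared pattern is what the likeness selected, so no test is given.

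**Figure D4:**
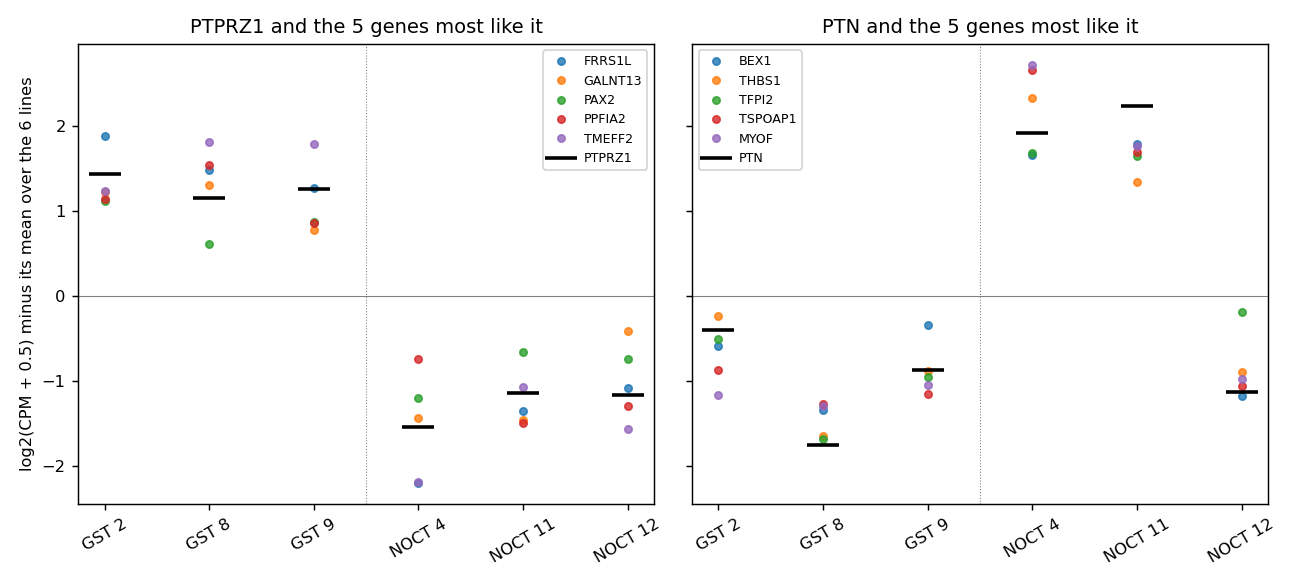
Log2(CPM + 0.5) minus its mean over the 6 lines for PTPRZ1 (left) and PTN (right), drawn as black bars, and the 5 genes most like each, drawn as points; the dotted line parts GST from NOCT lines. The PTPRZ1 profile parts the groups in all 6 lines, and the PTN profile parts NOCT lines 4 and 11 from the other 4.

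In the authors' deposited table, which holds adjusted p-values under 0.05 for 2.09% of its 23417 rows, PTN has a shrunken log2 fold change of 0.40 (adjusted p 0.129), TNC 0.26 (0.654), SDC3 -0.24 (0.422), MDK -0.03 (0.980) and PTPRG -0.01 (0.982). ALK is not used here from that table.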

How the data were processed

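RNA from 6 clonal HEK293 lines, 3 per group, was sequenced. Per the submitters' processing notes, cutadapt 1.8.1, Trimmomatic 0.33, STAR 2.5.2b, HTSeq 0.6.1p1 and DESeq2 1.16.1 were used with build GRCh38. The annotation release is not given in the sources used here. Counts as deposited are unnormalised reads for each gene. The 5 rows that name no gene (no feature: 26.5% to 30.6% of reads, ambiguous: 2.02% to 2.41%, not unique: 13.3% to 14.6%) entered neither library sizes nor tests. The authors' TPM table (49 repeated gene rows dropped) gave levels per length. The authors' deposited comparison holds a mean normalised signal, shrunken log2 fold changes, a test score, p-values and adjusted p-values, and its direction was taken from the construct rows. Coordinates are from GENCODE 29 on GRCh38, and upstream sequences from RefSeq (GRCh38.p14), matched by symbol for 6 of 7 members.

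Counts were analysed with edgeR 4.0.16 in R 4.3.3: filterByExpr, TMM, quasi-likelihood test, Benjamini-Hochberg adjustment over 17261 genes, threshold 0.05. The script was tested on simulated data. Standard errors came from the F statistic. Alternatives used DESeq2 1.42.0, limma 3.58.1, other scalings, filters and TPM pseudocounts, an offset for neighbouring genes, and leaving out each line. Named genes were the members, the 5 most like PTPRZ1, the 3 smallest p-values and 3 highest TPM of each list, and the nearest genes to PTPRZ1. Named outside this rule, after their values were seen, were the 5 genes most like PTN (not run under the alternatives), single marker genes, PTPRN2, PTPRG-AS1 and untested list genes. The members and lists were chosen with earlier results of these data known. The labels call the lines biological replicates.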

Additional observations from a re-analysis of the deposited data

How the results depend on the processing

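No paired analysis was possible because the GST and NOCT lines share no replicate number. Instead of 10 genes, 508 were called with DESeq2, 888 with no filter except a count above 0, 35 with the neighbour offset, 22 with spike-in totals as library sizes (14 higher and 8 lower, against 4 and 6, which raised the median over all genes to 0.15 in log2) and 16 with limma voom (5 higher and 11 lower). Leaving out each line gave 0 genes (without GST line 9, 1488 with an unadjusted edgeR p under 0.05) to 970 (without NOCT line 12), with 1 gene without NOCT line 11, 5 without GST line 2 and 6 without GST line 8. The cause was not tested.

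Genes near 0 changed sign. With spike-in totals, limma on log2(TPM + 1) and limma on log2(TPM + 0.1), the log2 fold change was 0.14, 0.0731 and 0.0765 for PTPRG, 0.0955, 0.105 and 0.107 for MDK, and 0.14, 0.0759 and 0.0812 for FAM3C. MDK was at 0.0478 with limma voom and FAM3C at 0.0228 with the neighbour offset. Leaving out a line moved PTPRG from -0.0468 to 0.0033, MDK from -0.36 to 0.42, CNTN4 from -0.0089 to 0.53, CSPG5 from -0.10 to 0.27, VCAN from -0.14 to 0.26 and FAM3C from -0.0575 to 0.0376. No other gene named with a fold change changed direction under the 15 alternatives, among them PTN (2.05 to 3.36), TNC (0.28 to 1.49), SDC3 (-0.32 to -0.12) and CHSY3 (-1.37 to -0.97). Without NOCT line 12, where 5.42% of all genes were called, 4 of 13 receptor phosphatases, 3 of 13 other receptors and ligands, 3 of 12 PTPRZ1 partners and 1 of 19 chondroitin enzyme genes were called. With no filter, where 2.57% were, it was 2 of 18 phosphatases, 2 of 15 other receptors and ligands and 1 of 20 chondroitin enzyme genes, and with limma voom 0 genes of the 7 lists. At 9 to 14 PTPRZ1 counts per NOCT library and at most 4 ALK counts, depth limits the precision of these levels.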
